A study of Homo sapiens with 8 samples.

Results

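The wild-type clones of RPMI-8402, an established line of human T-cell acute lymphoblastic leukaemia (T-ALL), are described here from RNA sequencing of clones WT10, WT13, WT28 and WT30. They are the 4 libraries of the wild-type group among 8 libraries in all, and were taken by their labelled genotype and clone name. The other clones of the series carry a knockout of the transcription factor gene NKX2-1 and were not compared here. Per the series design the wild-type and knockout clones both came out of the NKX2-1 knockout procedure. Each wild-type line is thus 1 clone, and whether its genome was touched by the procedure is not stated. All 4 were grown untreated in RPMI-1640 with 10% fetal bovine serum at 37 °C and 5% CO2. Each was sequenced as 1 library of total RNA, so the spread between them holds clone, culture and library differences together. Where a mean ± SD is given, n = 4 clones.

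T-ALL arises from thymocytes, the precursors that rearrange T-cell receptor genes in the thymus. Its cells keep the regulators of the stage at which they stopped, and many switch on a transcription factor that thymocytes normally keep off. TAL1 and LYL1 are basic helix-loop-helix factors that bind DNA with E proteins, LMO1 and LMO2 are bridging proteins in the same complexes, and NKX2-1 is a homeodomain factor known from lung and thyroid. RUNX1 is a core haematopoietic factor that acts with these complexes.

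Library totals ran from 18453947 to 22916424 counts, and between 22458 and 22978 genes had at least 1 count. Levels are given as counts per 1000000 of the library (CPM), scaled by TMM factors that lay between 0.981 and 1.04. A count of 0 allows up to 3 counts, or 0.131 to 0.157 CPM, and this limit covers counting error only. A gene is called on where it reached 1 CPM in every clone, at the floor where every clone had 3 counts or fewer, and low otherwise. By this rule 11541 of 61228 listed genes were on. Of 19839 protein-coding genes, 9776 were on, which is 49.3%, and 7173 were at the floor, which is 36.2%. Each count of list members that were on is to be set beside that 49.3%.

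The 4 clones shared a steep ranking of abundance. The 10 most abundant genes of each clone took 12.3% to 14.0% of its counts, the 100 most abundant 35.1% to 37.8%, and between 291 and 352 genes made up 50% of the counts. Mitochondrially encoded genes took 12.9% to 15.1% and the cytosolic ribosomal proteins 14.1% to 15.04%. MT-RNR2, the large ribosomal RNA of the mitochondrion, led with 33055, 39416, 34545 and 29932 CPM in WT10, WT13, WT28 and WT30. MT-RNR1, the small one, stood at 19509 CPM in WT10 against 14748, 12733 and 12559 in the others. WT10 was thus the highest clone for MT-RNR1 and not for MT-RNR2.

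**Figure D1:**
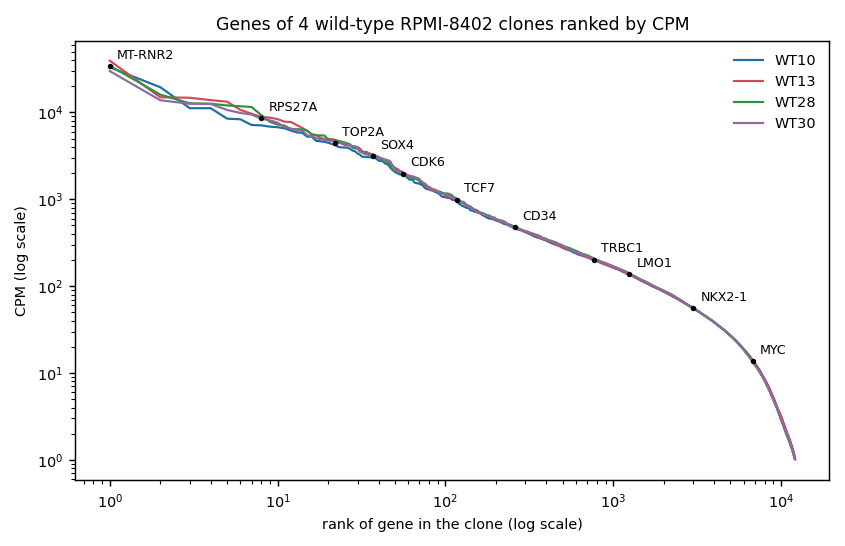
CPM (vertical, log scale) against the rank of each gene within its clone (horizontal, log scale), 1 line for each clone, with dots at the mean CPM and overall rank of named genes. The lines of the 4 clones nearly coincide beyond the most abundant genes, and NKX2-1 stands at a mean of 55.9 CPM.

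Among nuclear genes those with the highest CPM included RPS27A, RPS29, RPL37A, RPL27A, PABPC1, RPS4X, RPS24, PTMA and RPS6. Of these all but PABPC1, which coats poly(A) tails, and PTMA, a small acidic nuclear protein, encode ribosomal proteins. RPS27A had 6853, 8715, 9315 and 9451 CPM in the order above. Per kilobase of principal transcript, a scale that allows for the length of each gene, RPS29 came first among nuclear protein-coding genes at 15591 ± 1164 CPM per kb (SD). The genes that followed it included RPS27A, RPS21, RPS24, RPL26, RPS12, the histone gene H4C3, RPS19 and RPL34. The first non-ribosomal genes by CPM after PTMA were HSP90AA1, a chaperone, at 4651 ± 607 CPM and TOP2A, the topoisomerase of dividing cells, at 4414 ± 441 CPM. SOX4, a factor of lymphoid progenitors, reached 3079, 3144, 3114 and 3239 CPM, a spread of 1.05-fold between the highest and lowest clone.

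Of non-coding genes outside the mitochondrion, the snoRNA host genes were among the most abundant. SNHG25 had 1849, 1911, 1168 and 2191 CPM, and SNHG8, SNHG6, SNHG5 and SNHG1 averaged 832, 685, 629 and 430 CPM. Of 28 SNHG genes, 23 were on. MALAT1, a nuclear long RNA, averaged 889 ± 142 CPM, and NEAT1, the scaffold of paraspeckles, 336 ± 34.9 CPM. ZFAS1, NORAD, GAS5, RNU4ATAC, OIP5-AS1 and SNHG3 averaged between 222 and 375 CPM. WT28 was the lowest clone for SNHG25, which lies in the stretch of chromosome 17 described last.

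A gene listed at or near 0 in this table is not always a gene without RNA. EEF1G and EIF4A1, which translation needs in every cell, and TUBB, ALDOA and PNP were listed at 0 in all 4 clones, and ACTG1, a cytoplasmic actin, had 4 to 8 counts. Of 190 abundant core genes (ribosomal proteins, translation factors, chaperones with the proteasome, and chromatin proteins), 176 were on, and 24 had a mean under 10 CPM. Of these 24, 20 had at least 10% of their exon bases overlapped by another annotated gene or at least 10% of their sampled 50-base stretches present in another gene's transcript. Such overlap or sharing is common, in 118 of the 190. Of those 118, 16.9% were under 10 CPM, against 5.56% of the other 72. EEF1G, for instance, is overlapped over 99.9% of its exon bases and EIF4A1 over 48.6%. Over all coding genes, 52.8% of the 14358 under both limits were on, against 12.9% of the 1081 with most of their exon bases overlapped and 14.0% of the 1780 with most of their sequence shared. In the MHC span of chromosome 6 21 of 180 coding genes were on, or 11.7%, against 50.1% on the rest of that chromosome. How reads with more than 1 match were counted is not stated in the labels. Overlap or shared sequence of over 10% is therefore given beside the genes at the floor that have it, and none is called unexpressed. Genes above the floor can be undercounted too. An added list of 20 genes widely expressed in dividing cells, ACTB, GAPDH and EEF1A1 among them, also holds the genes at 0 named above. Of that list 7 were on and 6 low, and its median was 0.612 CPM. Both figures depend on that choice of members and are a description only. The ranks and shares given here therefore describe counted reads, and how many reads went uncounted was not tested.

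The T-cell lineage was plain in every clone. Of 11 genes of the T-cell receptor complex 9 were on, set against 49.3% of protein-coding genes. CD3D, the delta chain of the complex that carries the receptor's signal, had 448, 536, 571 and 599 CPM in WT10, WT13, WT28 and WT30. CD3G had 516, 535, 670 and 582 CPM, CD3E 229, 220, 265 and 254 CPM, and CD247, the zeta chain, 61.4, 70.8, 55.1 and 69.1 CPM. No clone stood apart in these 4 genes by more than 1.34-fold between highest and lowest. The receptor's own chains were uneven. TRBC1, a beta constant gene, had 159, 223, 221 and 204 CPM. TRBC2, the other beta gene, had 11.9 to 17.03 CPM, and 22.2% of the sampled sequence of each is shared. TRAC, the alpha constant gene, had 11.9, 13.4, 29.6 and 17.9 CPM, and TRDC, the delta gene, 4.86, 5.69, 10.7 and 5.93 CPM, with 38.8% of its exon bases overlapped. Both were highest in WT28. Per kilobase TRBC1 stood at 266 ± 39.2 and TRAC at 18.7 ± 8.22 CPM per kb. Among the V segments, which rearrangement joins to these genes, 1 of 54 TRAV genes was on, TRAV30, with 4.66 to 7.23 CPM, and 1 of 14 TRGV genes, TRGV4, with 1.99 to 5.17 CPM. None of 68 TRBV or 3 TRDV genes reached 1 CPM in every clone. Shared sequence was not computed for V segments, and how many of their reads went uncounted was not tested.

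Of 30 genes of the T-cell surface and its signalling, 19, or 63.3%, were on, beside 49.3% of all protein-coding genes. LCK, the kinase that starts receptor signalling, had 261, 286, 324 and 317 CPM, SH2D1A, a signalling adaptor, 224 to 296 CPM, and CD5 83.2 to 114 CPM. CD7, a marker of T-lineage blasts, was on at 5.50 to 6.43 CPM. CD2, an adhesion receptor, varied 2.02-fold, with 30.1, 43.2, 25.004 and 50.7 CPM. ZAP70, the kinase that binds the phosphorylated CD3 chains, was low, with 0 to 14 counts. The co-receptors stood at the other end. CD4 had 7 to 13 counts and CD8A at most 1 count, neither with overlap or shared sequence, while CD8B, also at the floor, shares 35.0% of its sequence. LAT and PTPRCAP were at the floor with 49.7% and all of their exon bases overlapped, and CD99 was at the floor with none.

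The stage markers were mixed. TCF7, the T-lineage factor downstream of NOTCH, had 917, 1023, 1045 and 978 CPM, and DNTT, the terminal transferase that adds bases at receptor joints, 594, 621, 546 and 657 CPM. RAG1, which cuts receptor genes, had 9 to 24 counts, and RAG2 1 to 9. DNTT was thus far above the recombinase genes in each clone, at 307 ± 23.8 against 0.116 ± 0.0416 CPM per kb for RAG1. Of the 17 genes listed for cortical thymocytes 4 were on, with CD1C, CD1E, CD8A and CD8B at the floor. PTCRA, the surrogate alpha chain of the pre-receptor, had 1.72, 5.03, 0.0931 and 3.71 CPM, so it was low by the rule because of WT28, which had 2 counts. CD1A went the other way, with 2.56 CPM in WT28 and 0.718 to 1.22 CPM in the others. Its variation, like that of PTCRA, is named after its values were seen.

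Of 19 early progenitor genes 10, or 52.6%, were on, near the 49.3% of all protein-coding genes. CD34, the stem and progenitor sialomucin, had 457, 450, 518 and 469 CPM. HHEX and LYL1, factors of early progenitors, averaged 167 ± 16.9 and 115 ± 8.78 CPM, and NFE2, MECOM and MEF2C 50.2, 31.1 and 35.8 CPM. KIT and LMO2 had 0 counts in every clone and FLT3 and SPI1 at most 2, with no overlap or shared sequence in any of these 4. CD34 was therefore high where the receptor kinases of the same stage had almost no counts. Of 27 T-lineage transcription factors 23 were on, with TCF7, MYB, LEF1 and BCL11B the highest per kilobase, and ID3 and ZBTB7B at the floor. LEF1 averaged 457 ± 30.7, BCL11B 686 ± 45.5 and GATA3 132 ± 4.42 CPM. TOX2 and ID2 were the variable members, with ID2, an inhibitor of E proteins, at 24.7, 60.8, 37.5 and 35.3 CPM.

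Mature and effector genes were mostly off, with 5 of 24 on. CD40LG, the ligand by which helper T cells activate B cells, was an exception at 221, 267, 287 and 255.8 CPM. GZMA, a granule protease, varied 7.01-fold, with 4.91, 1.74, 12.8 and 3.58 CPM, while PRF1, GZMB, IFNG and FOXP3 had 3 counts or fewer in every clone. TNFRSF4 and EOMES were on at 3.002 and 4.46 CPM on average.

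Markers of other cell types were on in part, beside 49.3% of all protein-coding genes. The 12 NK genes summed to between 19.5 and 33.6 CPM with 2 on, the 14 B-cell genes to 40.02 to 49.05 CPM with 6, or 42.9%, on, and the 16 myeloid genes to 33.5 to 42.9 CPM with 1 on. The erythroid and megakaryocyte list summed to 7.17 to 10.3 CPM with 1 of 16 on, the receptor gene EPOR, and GATA1 and HBB at the floor. The B-cell genes that were on included CR2, VPREB1, IGLL1, CD79A and CD79B. CR2, a complement receptor, had 16.2, 18.7, 17.8 and 18.2 CPM, and VPREB1 and IGLL1, the surrogate light chain, 5.15 to 6.85 and 4.94 to 6.06 CPM. MS4A1 had 0 counts in every clone and IGHM at most 2. The myeloid gene on was CTSG, a neutrophil protease, with 31.9, 32.7, 36.5 and 42.3 CPM, while MPO had at most 1 count. MPO has no overlap or shared sequence, whereas 34.0% of the exon bases of LYZ, at 0 throughout, are overlapped. The list for stroma, endothelium and epithelium summed to 138 to 207 CPM with 3 of 16 on, CLDN5 at 42.9 to 66.1, PECAM1 at 76.1 to 129 and COL1A1 at 12.5 to 19.7 CPM, and EPCAM, CDH1 and CDH5 at the floor. NKG7 and NCAM1, the NK genes on, each varied over 2-fold, at 4.39, 4.87, 11.9 and 4.76 CPM and at 16.9, 27.8, 10.1 and 13.0 CPM. The cultures are clones by label, and whether other cells add to these values was not tested.

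**Figure D2:**
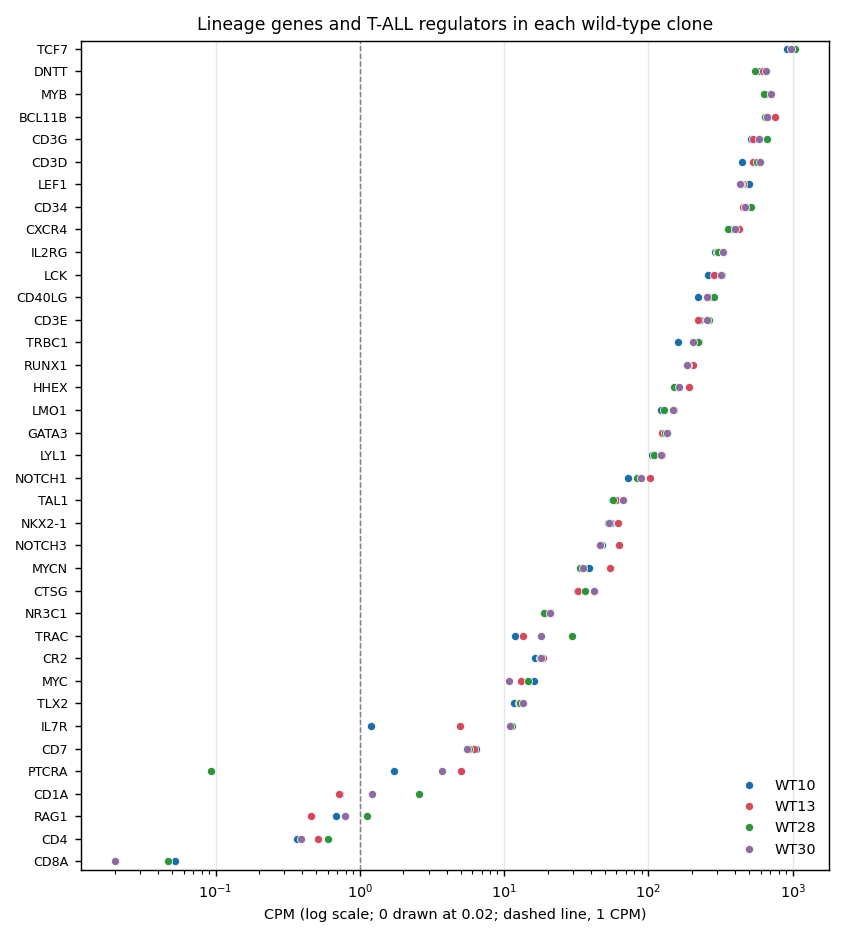
CPM (horizontal, log scale) of lineage genes and T-ALL regulators, 1 point for each wild-type clone, with the dashed line at 1 CPM and values of 0 drawn at 0.02. The clones lie close together for most genes, TCF7 and CD34 among them, whereas IL7R and PTCRA are spread widely, PTCRA from 0.0931 CPM in WT28 to 5.03 in WT13.

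A keratin pair was on in these leukaemia cells. Of 68 KRT genes 5 were on, beside 49.3% of all protein-coding genes. KRT10, a keratin of skin, averaged 77.5 ± 6.02 CPM, and KRT1, its usual partner there, had 67.4, 33.7, 131 and 58.6 CPM. KRT72, KRT73 and KRT2 followed at 29.7, 7.50 and 3.60 CPM on average. KRT1 and KRT72 were both highest in WT28 and lowest in WT13. The epithelial keratins KRT8 and KRT18 were at the floor, with overlap or shared sequence over 10%. These genes were chosen after their values were seen.

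Of 24 transcription factor oncogenes of T-ALL, 13, or 54.2%, were on, near the 49.3% of all protein-coding genes. MYB had 683, 659, 635 and 712 CPM. LMO1 had 123, 150, 129 and 149 CPM, LYL1 107, 124, 109 and 121 CPM, and TAL1 56.0, 59.8, 56.9 and 67.0 CPM. NKX2-1 had 55.4, 61.8, 52.9 and 53.4 CPM, a 1.17-fold range, and 12.7% of its exon bases are overlapped. RUNX1 had 192, 204, 189 and 184 CPM. Each of these factors was present in every clone with little spread, and RUNX1 made up 90.8% ± 1.56 of the summed per-kilobase level of RUNX1, RUNX2 and RUNX3. Of 4 LMO genes LMO1 took 90.4% ± 1.38 and LMO4 the rest, with LMO2 and LMO3 at the floor and neither overlapped nor shared. MYCN, MYC and MYCL took 50.5%, 33.0% and 16.5%, MYCN with 38.9, 54.3, 33.5 and 35.0 CPM and MYC with 16.1, 13.1, 14.6 and 10.8 CPM. The homeobox gene TLX2 was on at 11.8 to 13.6 CPM, whereas TLX1 had 0 to 4 counts and TLX3 and NKX2-5 at most 2. TLX3 is overlapped over 16.3% of its exon bases. Of 39 HOX genes 8 were on and 19 at the floor, 7 of these with overlap or shared sequence. HOXB4 had 56.2, 50.8, 38.6 and 46.8 CPM, HOXB7 23.7, 22.8, 15.97 and 23.04 CPM, and HOXB3 and HOXA5 averaged 15.1 and 10.5 CPM. Of 23 cancer-testis antigens SPA17 alone was on, at 1.04 to 1.88 CPM, and 20 were at the floor, 11 of them overlapped or shared.

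In the NOTCH pathway, the receptor system whose cleaved fragment acts with RBPJ on target genes, 20 of 32 genes were on. NOTCH1 had 72.4, 103, 83.9 and 88.4 CPM and NOTCH3 47.4, 62.3, 46.0 and 45.9 CPM, WT13 being the highest for both. Their shares of the summed NOTCH per-kilobase level were 59.3% ± 2.63 and 37.0% ± 2.19. Of the targets, HES1 had 327, 402, 319 and 250 CPM and HES4 69.2 to 83.6 CPM. DTX1, another target, varied 2.59-fold and did not follow HES1, with 5.22, 6.16, 13.7 and 10.2 CPM. NRARP, HEY1 and HEY2 were at the floor with no overlap or shared sequence over 10%. The ligand genes DLL1, DLL3, DLL4 and JAG2 were at the floor, and JAG1 had 9 to 24 counts.

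Of 28 T-ALL tumour suppressors 24 were on, among them LEF1, BCL11B, EZH2, USP7 and PHF6, the last at 177 ± 12.8 CPM. CDKN2A and CDKN2B, the inhibitors of CDK4 and CDK6 that lie side by side on chromosome 9, had 0 counts in every clone. MTAP, their neighbour, a salvage enzyme, had 0, 2, 3 and 1 counts, and each of the 3 is overlapped and shared over less than 10%. DNA copy number was not measured. RB1, which holds cells in G1, averaged 97.7 ± 10.8 CPM, and CDKN1A, an inhibitor of cyclin-dependent kinases, had 8 to 20 counts.

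Of the D cyclins, which drive G1, CCND3 took 99.9% ± 0.08 per kilobase, with 649, 599, 591 and 631 CPM. CCND1 and CCND2 each have overlap or shared sequence of at least 10%, so this share cannot be taken as cyclin use. CDK6, the kinase partner of CCND3, had 1991, 1860, 2209 and 1842 CPM. CDK4 had at most 3 counts in each clone, and 43.2% of its exon bases are overlapped, so its level cannot be set against that of CDK6. Of the inhibitors CDKN1B and CDKN2C averaged 77.3 and 76.3 CPM. Of 20 BCL2 family genes, the regulators of mitochondrial cell death, 15 were on. BCL2L12, PMAIP1, BIK and MCL1 were highest per kilobase, while BCL2 itself averaged 19.4 ± 2.55 and BCL2L1 52.0 ± 3.84 CPM. PMAIP1, a sensitiser, had 79.6, 75.4, 108 and 75.8 CPM, and BMF was the variable member. TERT, the catalytic subunit of telomerase, was on at 5.59, 3.69, 4.05 and 4.97 CPM and DKC1, a telomerase and rRNA protein, at 710 ± 51.6 CPM. TERC, the telomerase RNA, was listed at 0, with 81.0% of its bases overlapped.

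Of 36 genes of the RAS, PI3K and JAK pathways 29 were on, and families were carried by few members. Per kilobase, AKT2 took 93.7% ± 1.47 of the AKT kinases and PIK3CD 76.9% ± 1.92 of the PI3K catalytic subunits. PIM3 took 84.1% ± 4.03 of the PIM kinases, and JAK1 46.3% and TYK2 41.8% of the Janus kinases. PIK3CA has overlap or shared sequence of at least 10%, which limits the reading of the PIK3CD share. STAT5A had 299, 348, 234 and 275 CPM and STAT3 110, 96.3, 78.4 and 108 CPM, WT28 being the lowest in both.

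**Figure D3:**
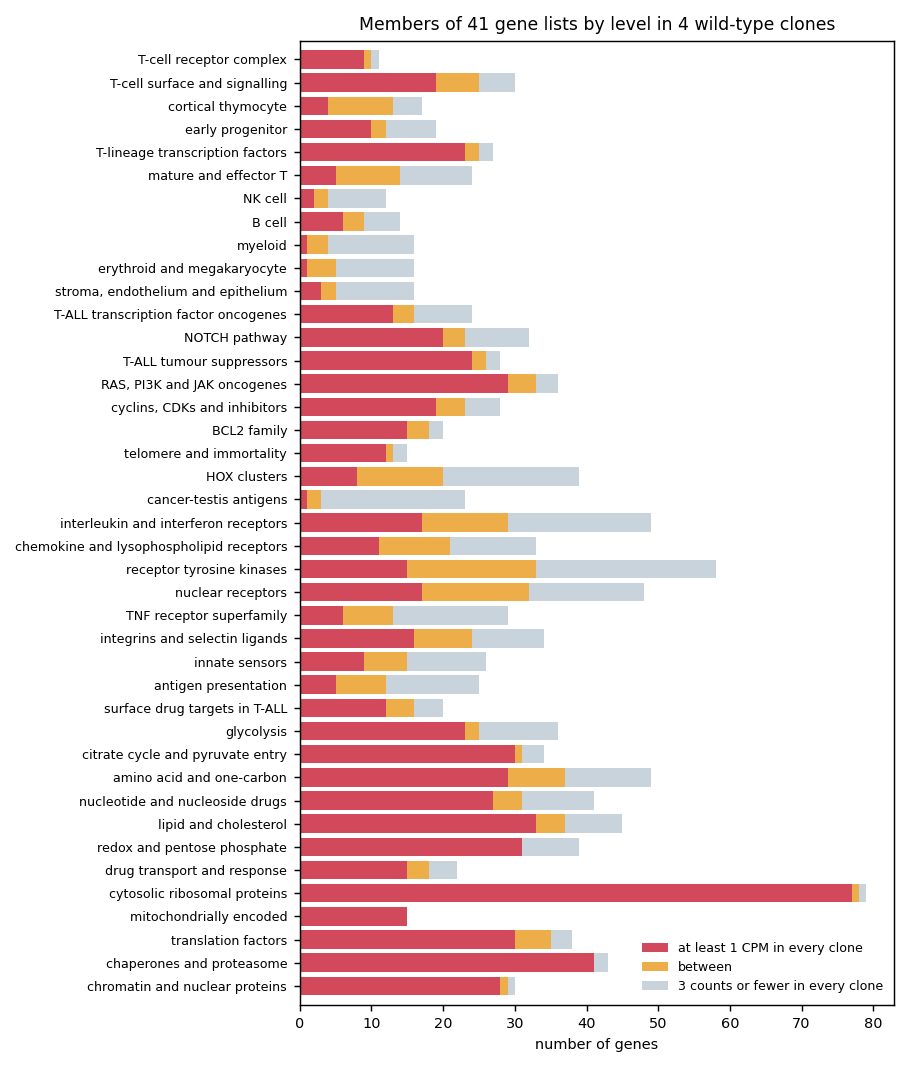
Number of genes (horizontal) of each of 41 gene lists that were on, low or at the floor in the 4 wild-type clones, as stacked bars. T-lineage transcription factors were on for 23 of 27 members and myeloid markers for 1 of 16.

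Of 322 listed receptor genes 108 were on, beside 49.3% of all protein-coding genes. Of 49 interleukin and interferon receptor genes 17 were on. IL2RG, the chain shared by several cytokine receptors, had 288, 300, 302 and 330 CPM, though 50.8% of its exon bases are overlapped and 65.3% of its sequence is shared. IL7R, whose ligand is the survival factor of early T cells, had 1.202, 4.93, 11.3 and 11.0 CPM, an 8.75-fold range with WT10 the lowest. IL4R had 3.71, 1.54, 10.3 and 5.41 CPM. IL2RA had at most 2 counts and IL2RB 4 to 18. IL21R, another partner of the common chain, had 1.93, 0.872, 7.82 and 3.93 CPM, an 8.18-fold range, with 23.3% of its exon bases overlapped. Per kilobase IL2RG stood at 199 ± 11.5 CPM per kb, against 1.53 ± 1.06 for IL7R, 1.45 ± 1.04 for IL4R and 1.21 ± 1.02 for IL21R. So the common chain stood far above these 3 partners, each of which varied widely among the clones.

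Of 33 chemokine and lysophospholipid receptor genes 11 were on. CXCR4, which holds cells in the marrow, had 374, 428, 354 and 400 CPM, S1PR4 62.3 to 76.6 CPM and S1PR1, the exit receptor, 23.9 to 33.6 CPM. CCR9, the thymic and gut homing receptor, had 16.9, 8.36, 20.02 and 15.1 CPM, and LPAR6 4.02, 3.08, 15.6 and 4.06 CPM. WT28 was the highest clone and WT13 the lowest for both of these. Of 58 receptor tyrosine kinases 15 were on and 25 at the floor, EGFR, MET and KIT among the latter. Per kilobase the highest were EPHB6 at 42.3 ± 3.17, PTK7 at 23.06 ± 0.805, FGFR1 at 22.8 ± 2.31, RYK at 10.7 ± 1.18 and FLT1 at 8.56 ± 1.38 CPM per kb, and PTK7 and FGFR1 differed by less than their spread. Of 48 nuclear receptors 17 were on. NR3C1, the glucocorticoid receptor through which steroid treatment of T-ALL acts, had 20.95, 19.96, 18.8 and 20.9 CPM. Per kilobase NR3C1 stood at 2.97 ± 0.153 CPM per kb. Of 29 TNF receptor genes 6 were on, with TNFRSF1A, TNFRSF13C and TNFRSF8 (CD30) at 42.9, 31.8 and 23.8 CPM on average, and FAS had 1 to 6 counts.

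Among surface and sensor genes, CD47, the signal against phagocytosis, averaged 466 ± 29.5 and TFRC, the transferrin receptor, 496 ± 50.2 CPM. Of 34 integrin and selectin genes 16 were on, ITGB2 highest at 254 ± 37.1 CPM, and ITGA1 varied 4.33-fold with 4.75, 17.9, 4.05 and 8.95 CPM. Of 26 innate sensors 9 were on. IFI16 had 336, 298, 349 and 304 CPM, whereas CGAS and STING1, the cytosolic DNA sensor and its adaptor, had 3 counts or fewer, with neither overlap nor sharing over 10%. Of 25 antigen presentation genes 5 were on and 13 at the floor. B2M had 8.05, 8.36, 6.10 and 3.71 CPM and TAP1 at most 1 count. Most of that list lies in the MHC span named above, where few genes of any kind were counted, while B2M itself lies on chromosome 15 with no overlap found. Of 74 ligand and receptor pairs, both genes were on for 9: TGFB1 with TGFBR1, VEGFA and VEGFB with FLT1, EFNB1 with EPHB6 and EPHB4, SEMA4D with PLXNB1, CD47 with SIRPG, and CD58 and CD48 with CD2. For 25 pairs the receptor alone was on, and for 9 the ligand alone. VEGFB had 50.9 to 55.9 CPM beside FLT1, a receptor for both VEGF ligands, and VEGFA 16.97 to 30.4 CPM.

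Of 266 listed metabolic genes 188 were on, beside 49.3% of all protein-coding genes. Of 36 glycolysis genes 23 were on, of 34 for pyruvate entry and the citrate cycle 30, of 39 redox and pentose phosphate genes 31, and of 45 lipid and cholesterol genes 33. GSTP1, a glutathione transferase, averaged 2543 ± 252 CPM. ADA, the deaminase whose loss poisons T cells, averaged 751 ± 39.4 CPM, PHGDH, the entry to serine synthesis, 266 ± 14.9 CPM, and SCD and FADS1, the fatty acid desaturases, 398 ± 70.7 and 392 ± 53.6 CPM. NT5E, CDA, HMOX1 and ABCB1, an exporter of drugs, had at most 1 count, with neither overlap nor sharing over 10%. ASNS, the asparagine synthetase that bears on asparaginase treatment, was at the floor, but 44.6% of its exon bases are overlapped and 81.3% of its sequence is shared. No level can be read for ASNS.

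Isozymes were carried by 1 member in many families. Per kilobase, ENO1 took 94.8% ± 1.23 of the enolases, HK1 86.2% ± 1.89 of the hexokinases, PDK3 85.6% ± 6.17 of the pyruvate dehydrogenase kinases, IDH2 93.7% ± 1.02 of the NADP-linked isocitrate dehydrogenases, CPT1A 89.6% ± 2.07 of the carnitine palmitoyltransferases, SHMT2 99.9% and BCAT2 97.5% ± 0.54 of theirs. ACACB, the mitochondrial acetyl-CoA carboxylase, took 84.8% ± 3.74 against 15.2% for ACACA. PFKP, PFKL and PFKM split the phosphofructokinases at 47.1%, 37.3% and 15.6%. TCF3, TCF12 and TCF4, the E proteins, split at 61.8%, 24.8% and 13.4%. LDHB took 99.4% ± 0.23 of lactate dehydrogenase and ALDOC nearly all of the aldolase counts. LDHA shares 10.6% of its sequence and ALDOA 89.5%, so these 2 shares cannot be taken as isozyme use. PDK2 and CPT1B also have overlap or shared sequence of at least 10%, so the PDK3 and CPT1A shares carry the same limit. The remaining shares also describe counted reads only. A gene under that limit can still have few counts, as ACTG1 had above, and undercounting of single members was not tested.

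With all 4 clones, glycolysis held more variable genes by count than any of the other 40 lists. A gene is called variable where its mean was at least 5 CPM and its highest clone was at least 2-fold above its lowest (log2 CPM, prior count 2). Of 9038 genes with that mean 225 were variable, or 2.49%. Of the 22 glycolysis genes with that mean 9, or 40.9%, were variable. The share was higher in 2 short lists, NK cell with 2 of 2 and antigen presentation with 2 of 3. Of the 22 glycolysis genes, 17 were highest in WT13, where 24.4% of all genes were highest. The count of variable glycolysis genes rests on WT13 and WT28: without WT13 2 were variable, as many as in 3 other lists, and without WT28 4, while 139 and 130 of all genes were. Of the same 22, 11 were lowest in WT28, where 23.9% of all genes were lowest. ENO1 had 2755, 4845, 2069 and 2725 CPM in WT10, WT13, WT28 and WT30, PGK1 599, 937, 460 and 588 CPM, and PKM 402, 659, 258 and 350 CPM. For each of the 3 WT13 was the highest clone and WT28 the lowest. PFKFB3, which makes the activator of phosphofructokinase, had 36.7, 75.1, 18.8 and 37.0 CPM, and SLC16A3, the lactate exporter, 14.6, 30.3, 5.91 and 9.21 CPM. LDHB, PFKL and HK1 varied by less than 1.3-fold. So the spread ran through a subset of the pathway.

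That subset overlaps the genes that hypoxia-inducible factor is known to induce. A list of 39 such genes was drawn up after the glycolysis values were seen, so its counts are a description and lend no support. Of its 29 members with a mean of at least 5 CPM, 28 were highest in WT13, 19 were lowest in WT28 and 10 in WT30, and 14 were variable. The exception to WT13 was NDRG1. The median ratio of WT13 to WT28 was 1.64, against 0.986 over all 9038 genes. BNIP3, a mitophagy receptor, had 31.7, 72.3, 20.1 and 26.4 CPM, PDK1, which keeps pyruvate out of the citrate cycle, 38.8, 75.3, 23.1 and 36.8 CPM, and AK4, a mitochondrial adenylate kinase, 7.16, 14.4, 4.28 and 2.40 CPM. HIF1A itself, with 30.98, 31.9, 30.1 and 27.6 CPM, and VHL, which targets it for breakdown, with 168 to 192 CPM, differed little between clones. The labels do not state the density or growth phase of the cultures, and their part in the result was not tested.

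The promoters of 5 of these genes, which moved together, are shown because they differ in matches to the run of letters searched for. Each is the window from 250 bases before to 50 after the gene's start (RefSeq, GRCh38.p14), 5′ to 3′, with every ACGTG on either strand in capitals.
PGK1, chrX:78103998-78104297, plus strand: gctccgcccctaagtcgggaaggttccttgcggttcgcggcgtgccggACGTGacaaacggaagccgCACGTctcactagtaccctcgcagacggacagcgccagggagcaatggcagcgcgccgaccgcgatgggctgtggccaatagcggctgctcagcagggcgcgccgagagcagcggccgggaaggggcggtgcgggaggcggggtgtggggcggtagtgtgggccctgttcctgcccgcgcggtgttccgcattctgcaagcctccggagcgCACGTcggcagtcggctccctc
BNIP3, chr10:131981874-131982173, minus strand: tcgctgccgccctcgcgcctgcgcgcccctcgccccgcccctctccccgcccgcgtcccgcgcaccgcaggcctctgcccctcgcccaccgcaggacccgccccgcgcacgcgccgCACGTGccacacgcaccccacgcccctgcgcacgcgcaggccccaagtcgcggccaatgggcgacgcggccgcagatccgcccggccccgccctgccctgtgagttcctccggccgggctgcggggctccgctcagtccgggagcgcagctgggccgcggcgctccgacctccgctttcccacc
AK4, chr1:65147302-65147601, plus strand: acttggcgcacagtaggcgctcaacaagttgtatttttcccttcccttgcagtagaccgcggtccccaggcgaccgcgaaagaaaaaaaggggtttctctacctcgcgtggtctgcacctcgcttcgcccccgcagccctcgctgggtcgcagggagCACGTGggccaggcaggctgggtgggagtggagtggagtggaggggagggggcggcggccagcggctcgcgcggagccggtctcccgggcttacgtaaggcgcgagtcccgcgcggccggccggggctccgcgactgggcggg
PFKFB3, chr10:6144671-6144970, plus strand: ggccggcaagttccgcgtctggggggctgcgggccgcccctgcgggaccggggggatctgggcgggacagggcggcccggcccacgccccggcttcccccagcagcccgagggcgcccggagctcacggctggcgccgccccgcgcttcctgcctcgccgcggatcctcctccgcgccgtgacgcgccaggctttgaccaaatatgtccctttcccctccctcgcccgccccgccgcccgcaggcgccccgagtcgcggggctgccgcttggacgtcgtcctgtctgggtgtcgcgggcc
PDK1, chr2:172555123-172555422, plus strand: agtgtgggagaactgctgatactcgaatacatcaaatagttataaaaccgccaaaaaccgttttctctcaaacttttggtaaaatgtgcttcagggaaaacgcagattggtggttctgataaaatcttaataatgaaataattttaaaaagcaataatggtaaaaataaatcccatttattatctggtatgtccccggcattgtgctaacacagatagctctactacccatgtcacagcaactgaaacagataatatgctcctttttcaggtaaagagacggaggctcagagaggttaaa
PGK1 holds 3 such matches. BNIP3 and AK4 hold 2 each, which overlap because CACGTG reads the same on both strands, and PFKFB3 and PDK1 hold none. Of the 29 listed genes with a mean of at least 5 CPM, 24 had a promoter among the RefSeq sequences, and 12 of these, or 50%, held at least 1 match. Of all 27305 promoters 21.6% did, and of 6244 promoters of coding genes that were on, not overlapped and not shared, 27.0%. The listed genes were chosen as ones that the factor is known to induce. A high share is therefore built into the list and says nothing of these clones. A match is a run of letters and not a bound site, and the absence of one in this window says nothing of sites elsewhere. Other runs of letters that the factor may read were not searched for, so a window without a match may hold them.

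On a wider scale the same 6244 promoters held a median of 27 CpG dinucleotides, against 9 in 3528 promoters of genes at the floor. The observed to expected CpG ratio was over 0.6 in 86.1% of the first and 38.2% of the second, and in 71.0% of 124 promoters of variable genes.

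The largest spread belonged to a few genes outside metabolism. ARPP21, a phosphoprotein gene transcribed in cortical thymocytes, had 13.8, 0.308, 31.7 and 2.44 CPM in WT10, WT13, WT28 and WT30, a 78.6-fold range that rests on 6 counts in WT13. TBX1, a T-box factor of pharyngeal and thymus development, had 0.731, 0.410, 22.5 and 0.611 CPM, so that WT28 stood 27.3-fold above the next clone, the others having 8 to 14 counts. A gene can pass the mean of 5 CPM through a single high clone, as TBX1 did through WT28. Genes with a similar spread and a lower mean are left out by that filter. SWAP70 had 16.2, 26.3, 3.63 and 29.3 CPM, with WT28 the low clone, and SLC7A3, an arginine transporter, 3.50, 22.3, 16.9 and 20.03 CPM, with WT10 the low one. ARPP21 in WT13, TBX1 and SWAP70 in WT28 and SLC7A3 in WT10 were the genes of this set at least 4-fold away from every other clone. WT30 had none.

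Of the 225 variable genes 106 were highest in WT13, 57 in WT28, 37 in WT10 and 25 in WT30, while 83 were lowest in WT28. The most frequent order was highest in WT13 and lowest in WT28, with 57 genes. It held SDK2, SCUBE1, PLEKHA6, TCEAL3, EFEMP1, NRN1, RPRML and PTCHD1 besides PFKFB3, BNIP3 and PDK1. SDK2, an adhesion protein, had 34.6, 78.9, 8.61 and 19.4 CPM, and CBFA2T3, a corepressor of haematopoiesis, 38.0, 58.3, 16.5 and 42.8 CPM. The reverse order, highest in WT28 and lowest in WT13, held 31 genes, with ARPP21, TBX1, SMIM14, FYB1, GZMA, POU2F2, IL4R, NKAIN4, LPAR6, CD53 and CCR9 among them. FYB1, an adaptor of T-cell receptor signalling, had 35.7, 6.002, 42.1 and 16.1 CPM, and POU2F2, a lymphoid octamer factor, 8.67, 3.13, 21.7 and 6.24 CPM. A further 18 genes were highest in WT28 and lowest in WT10, IL7R, NKG7, TOX2, DTX1, TRAC, TRDC and PTPN6 among them. Over all 9038 genes WT28 was the highest clone for 29.4%.

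**Figure D4:**
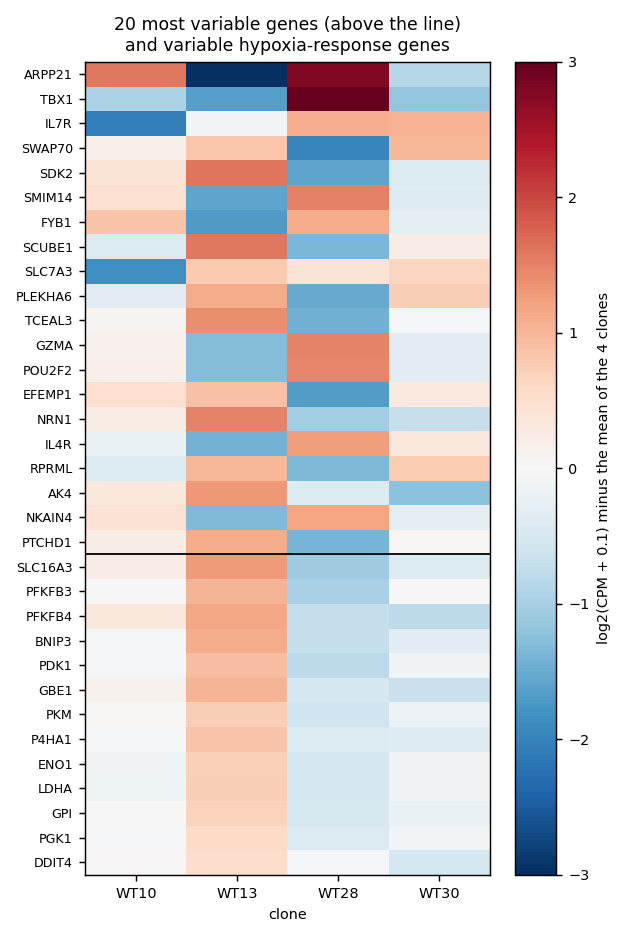
Difference of log2(CPM + 0.1) from the mean of the 4 clones (colour, with differences over 3 drawn as 3) for the 20 most variable genes, above the line, and the other variable hypoxia-response genes, below it, with 1 column for each clone. ARPP21 runs from 0.308 CPM in WT13 to 31.7 in WT28, and the genes below the line are highest in WT13.

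Across 9038 genes the SD of log2 CPM among clones had a median of 0.13 and a 95th percentile of 0.36, and edgeR's common biological coefficient of variation was 13.6%. The root mean square distance was largest between WT13 and WT28, at 0.346, and lay between 0.264 and 0.283 for the other 5 pairs. Counting error at the mean count was at most 9.93% for any variable gene, but it is larger in a low clone. The threshold of 2-fold is a line through a continuum, with 40 genes between 2 and 2.1-fold and 52 between 1.9 and 2-fold.

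One stretch of the genome differed in a single clone. In WT28 the 219 genes of chromosome 17 that start between 32 and 65 Mb (hg38) and have a mean of at least 5 CPM had a median of -0.38 log2 CPM relative to the mean of the other 3 clones, which is 76.8% of their level. WT28 was the lowest clone for 196 of them, or 89.5%, against 23.9% of all 9038 genes. The medians of the other clones, 0.11 to 0.16, are above 0 because their comparison group holds WT28. On the same chromosome, 191 genes before the stretch had a median of 0.05 in WT28 and 132 after it 0.08. The bounds were set after the values were seen, from a running median over 15 genes that lay at least 0.2 below 0 without a break from RHOT1 (start 32142454) to GNA13 (start 65010715). Among 343 windows of 5 Mb with at least 10 such genes, 10 passed the 0.2 used for the bounds in any clone. Of these, 6 lie on chromosome 17 and the others on chromosomes 2 and 3. At a limit of 0.3, 6 windows passed in any clone, and all 6 lie between 35 and 65 Mb of chromosome 17. The largest median elsewhere was 0.28 in size. Of these genes 5 were variable by the 2-fold rule, so the shift was in small steps over many genes.

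**Figure D5:**
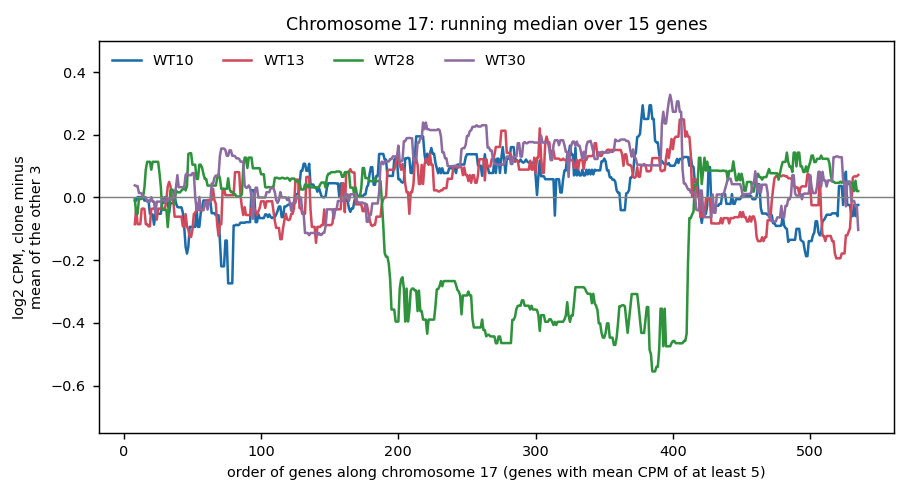
Running median over 15 genes of log2 CPM in each clone minus the mean of the other 3 (vertical), in the order of genes along chromosome 17 (horizontal). WT28 lies at least 0.2 below 0 over one continuous run of 219 genes and returns to the level of the other clones after it.

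Genes described above lie in that stretch. In WT28, relative to the mean of the other clones, STAT5A, STAT5B and STAT3, the signal transducers of cytokine receptors, stood at -0.39, -0.45 and -0.41 on the log2 scale, and BRCA1, a repair factor, at -0.44. BRCA1 had 172, 149, 115 and 150 CPM. HOXB7 stood at -0.53, HOXB4 at -0.41, THRA, a thyroid hormone receptor, at -0.29, and TOP2A at -0.22. HOXB3 and PPM1D, in the same stretch, had WT30 as the lowest clone. SUZ12, a polycomb subunit that starts just before the bounds, had 305, 267, 222 and 284 CPM. PECAM1, at 110, 123, 76.1 and 129 CPM, and SNHG25 also had WT28 as the lowest clone. DNA copy number was not measured in these files, so a change in copy number and a change in transcription cannot be told apart.

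A few genes were on while their coding neighbours within 1 Mb were all at the floor. Overlap or shared sequence of those neighbours is not given here, and none of them is called unexpressed. CHORDC1, a chaperone partner, had 22.1 ± 2.67 CPM with its 11 coding neighbours within 1 Mb on chromosome 11 (90201160 to 90223364, hg38) all at the floor. PLS3, an actin bundler on the X chromosome, averaged 12.3 ± 3.19 CPM with 8 such neighbours, TLE1, a corepressor, 10.8 ± 1.10 CPM with 3, PLSCR1, a scramblase, 9.25 ± 1.27 CPM with 6, and HERC2, a ubiquitin ligase, 7.84 ± 0.618 CPM with 9. SPANXB1 and ZNG1E averaged 2.50 and 1.95 CPM. CHORDC1 shares 13.7% of its sampled sequence and HERC2 23.3% with other transcripts.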

How the data were processed

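RNA of 8 RPMI-8402 clones was sequenced, and the 4 wild-type libraries were used here. The values are whole-number read counts per gene, deposited by the authors as 1 table. FastQC, TopHat2, SAMtools, Subread and hg38 are named in the submitters' processing notes. How RNA was selected, the strand setting, the annotation and the treatment of reads with several matches: not given in the sources used here. Gene symbols, the row names of the file, were matched to GENCODE 29 through the gene identifiers paired with them, or by name for 22 rows (57038 of 61228 rows, the rest holding 0.169% to 0.199% of counts), which gave types, positions, lengths, exon overlap and shared 50-base stretches. Shared stretches were computed for protein-coding genes and antigen receptor constant genes only. CPM used TMM factors from edgeR 4.0.16 in R 4.3.3, and other steps used Python 3.11.15, numpy 2.4.6 and pandas 2.3.3.

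No groups were compared, so there is no test between groups and no p-value. Clones are separate by label, nothing more is said of their cultures, and the spread between them may be partly technical. The chi-square per degree of freedom between pairs of clones was 12.3 to 19.4, so each clone was kept as its own library. Floors cover counting error only. The selection of variable genes was checked on simulated counts with known fold changes. Those counts had the same dispersion for every gene and each change in a single clone. The check therefore does not give the rate of false calls in these data. The gene lists and members were chosen with earlier results of these data known. Named genes were the 10 highest by CPM and per kilobase, the top, floor and most variable members of each list, the 20 variable genes with the largest SD, those at least 4-fold away from every other clone, isozyme families and ligand and receptor pairs that were on, the 20 most abundant non-coding genes, isolated genes, NKX2-1 and RUNX1. Other named genes, the hypoxia list, the keratins, the receptor V segments and the chromosome 17 stretch were chosen after values were seen. A few genes that the rule names are not reported here. Alternatives were other thresholds and filters, DESeq2 1.42.0 size factors, library totals without TMM, thinning to the shallowest library, and leaving out each clone.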

Additional observations from a re-analysis of the deposited data

Results flagged for a closer look

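Of 175 named genes 13 had a clone whose gap to the nearest of the others was over 0.829 of the whole range of the 4. Chance gives about 1 in 20 for genes named without regard to spread, but some of these were named for a large one, so the count is not read against that rate. The gap is relative and can be small in size, 1.08-fold for MAVS and 1.204-fold for EIF1. Each value is log2 CPM in that clone. WT28 was far below the others for EIF1 (9.22) and HOXB7 (4.01), which both lie in the chromosome 17 stretch. WT28 was far above them for LPAR6 (3.97), NKG7 (3.58), PMAIP1 (6.76) and TBX1 (4.497). WT13 stood above the others for MT-ATP8 (13.12), TMSB4X (8.11) and TPI1 (9.56), and below them for MAVS (6.65) and NLRC5 (2.30). ITGA6 was low in WT30 (6.31) and SLC7A3 in WT10 (1.85).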

How the results depend on the processing

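The count of genes on stayed within 1.5 times of 11541 under every alternative run over all listed genes. It ran from 8604 at 5 CPM to 12925 at 0.5 CPM, and was 11660 to 11734 without 1 clone. The count of variable genes (225) moved most. It was 1059 at a mean of 1 CPM, 111 at 10 CPM, 9520 with no filter on low counts, 1112 at 1.5-fold, 35 at 4-fold, and 65 at a biological coefficient of variation of 0.3. It was 130 to 180 without 1 clone, 130 without WT28 and 139 without WT13. Scaling by DESeq2 size factors gave 224, of which all 224 were among the 225. Of the 20 named variable genes, 15 remained without WT28, 17 without WT13 and 10 at a mean of 10 CPM. The share of counts in the 100 most abundant genes (36.4%) was 28.2% without mitochondrial genes and 35.9% to 36.8% without 1 clone. The root mean square distance between wild-type clones (0.287) was 0.251 at a mean of 10 CPM and 0.271 to 0.305 without 1 clone. Alternatives added after the data were seen were coding genes under 10% overlapped and shared, and genes outside the chromosome 17 stretch. The first left 7574 genes on, to be set against 9776 coding genes on and not against 11541 of all genes. On that footing neither moved a count by over 1.5 times. No paired analysis was possible because no groups were compared. Depth limits the floor to 0.131 to 0.157 CPM.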
